A study of Mus with 18 samples.

Results

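The superoxide dismutases Sod1, Sod2 and Sod3, the catalase gene Cat and the peroxiredoxins Prdx1 to Prdx6 were taken by gene symbol from 2 tables of FPKM, 1 for C2C12 cells and 1 for mouse gastrocnemius muscle. FPKM gives the fragments of a gene per length of its transcript and per size of the library. All 10 genes were found among the 21401 symbols of each table, and all 10 passed the filter of a mean over 1 FPKM, Sod3 of the C2C12 table only through its LPS-MIC-1 libraries. Each table held 9 libraries in 3 groups of 3 (control, LPS and LPS-MIC-1). LPS is the bacterial lipopolysaccharide that sets off inflammation, and MIC-1 is moringa isothiocyanate-1 from the seeds of Moringa oleifera. C2C12 is a line of mouse myoblasts, labelled wild type, and its libraries were labelled as saline vehicle, as LPS at 1 μg/mL, and as LPS with MIC-1 at 10 μM for 24 h. The muscle came from wild type C57BL/6 male mice whose age was not given in the sources used here. By the labels they received saline vehicle, LPS at 10 mg/kg into the peritoneum, or gavage of MIC-1 at 80 mg/kg in 10% DMSO on each of 3 days before that LPS, and tissue was taken 16 h after LPS. The study's text names another vehicle, ethanol for cells and DMSO by mouth for control mice, so the vehicle of the controls is uncertain. MIC-1 without LPS is not analysed here, so LPS-MIC-1 could be set only against LPS and against control. Nothing in the labels says that the cell libraries came from separate cultures, so p-values measure only the spread between these libraries.

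These enzymes work as a relay. Superoxide dismutases turn superoxide into hydrogen peroxide, with Sod1 in the cytosol using copper and zinc, Sod2 in the mitochondrial matrix using manganese, and Sod3 outside the cell. Catalase in peroxisomes and the peroxiredoxins then remove the peroxide. Prdx1 and Prdx2 are mainly cytosolic, Prdx3 is mitochondrial, Prdx4 sits in the endoplasmic reticulum, Prdx5 in mitochondria, peroxisomes and cytosol, and Prdx6 works with a single catalytic cysteine. Most peroxiredoxins are recharged by thioredoxin, which thioredoxin reductase keeps reduced. Sod2 is a known target of NF-κB signalling, while Prdx1 is a known target of the electrophile sensor Nrf2, which isothiocyanates are known to switch on.

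The labels were checked against marker genes before any comparison. In the C2C12 table, the median of 15 macrophage genes was 440 ± 3.34 FPKM (SD, n = 3) in libraries labelled control and 177 ± 5.90 in those labelled LPS, but 5.07, 0.324 and 0.167 in LPS-MIC-1 replicates 1, 2 and 3. Lyz2, which had the highest mean of them over the 9 libraries, stood at 4598 to 4761 FPKM in control, 1786 to 1866 under LPS and 0.616 to 48.8 under LPS-MIC-1. Of 9 myogenic genes, all 9 had a mean under 1 FPKM in control and in LPS, Myod1 among them, and their median was 53.9 ± 3.88 under LPS-MIC-1. The libraries labelled control and LPS therefore lack the defining markers of a myoblast, and any difference of LPS-MIC-1 from them cannot be told apart from this difference in cell identity. Of 14 genes of the LPS response, 13 were higher and 1 lower in every C2C12 LPS library than in every control library. Under LPS-MIC-1, 3 were higher and 11 lower than in every LPS library. Among all genes, 79.4% and 85.5% showed no overlap in these 2 comparisons. The median of the 14 was 31.4 FPKM in control, 393 in LPS and 50.4 under LPS-MIC-1. In muscle, fibre genes were abundant in every library, but genes of the LPS response were high in the libraries labelled LPS-MIC-1. Lcn2 stood at 0.111 to 0.991 FPKM in control, 0.336 to 1.34 under LPS and 1162 to 1318 under LPS-MIC-1, and all 14 genes of that list were higher in every LPS-MIC-1 library than in every LPS library. Only 4 of those 14 were higher in every LPS library than in every control library, so in muscle the libraries labelled LPS showed little of that response. The labels of these muscle groups are thus in doubt. In both tables LPS and LPS-MIC-1 name libraries by their labels, and a muscle value under either name does not tell which treatment it followed. The median of the 15 macrophage genes in muscle was 1.32 ± 0.358 FPKM in control, 1.89 ± 0.324 under LPS and 3.09, 2.76 and 9.11 in LPS-MIC-1 replicates 1, 2 and 3. The sum of FPKM per library also moved with the groups, at 547475 to 552373 in C2C12 control, 687390 to 701659 under LPS and 667207 to 797734 under LPS-MIC-1. In muscle it was 722994 to 740810, 715513 to 728858 and 634197 to 672157. Each comparison was also fitted with FPKM rescaled to equal sums, and several of those results are given below. The cause of these differences, and their part in the results beyond that refit, were not tested. Read depth per library is not given in the sources used here.

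In the C2C12 table, Prdx5 was the member that stood out between the libraries labelled LPS and those labelled control, with a 6.06-fold higher level. Sod2 was higher as well, while Sod1, Prdx2 and Prdx3 were lower. In total 2 of the 10 genes were higher and 3 lower at an adjusted p under 0.001 (limma, Benjamini-Hochberg over 10877 genes), against 18.6% of all genes tested that were higher and 19.3% that were lower. With a log2 fold change over 1 in size as well, 1 was called, Prdx5, where 20.9% of all genes were, and FPKM rescaled to equal sums called 1 higher and 2 lower. That rescaling moved the median log2 fold change of all genes by −0.34 in this comparison and by −0.37 in LPS-MIC-1 against control. Leaving out any 1 of the 6 libraries compared left 1 member past the threshold, or 2 without LPS replicate 3. The share of members that passed was thus not far from that of all genes, 37.8%. Their median log2 fold change was −0.03, against 0 over all genes.

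**Figure D1:**
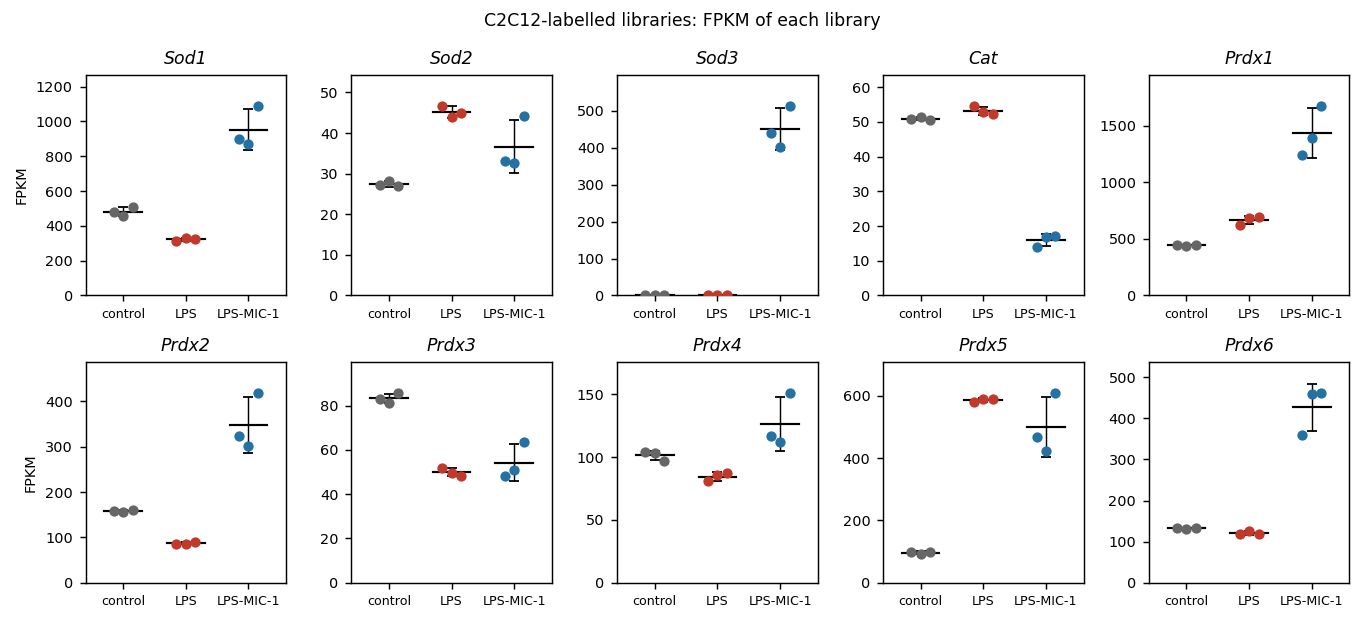
FPKM of the 10 genes in the 9 C2C12-labelled libraries, 1 panel per gene with its own axis from 0. Points are libraries, horizontal lines are means and bars are SD (n = 3). Prdx5 is high in LPS and LPS-MIC-1, Sod3 is seen in LPS-MIC-1, and Cat is low there.

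Prdx5, which reduces peroxides in several compartments, stood at 100.2, 90.8 and 98.8 FPKM in control, at 578, 588 and 590 under LPS, and at 468, 423 and 607 under LPS-MIC-1. All 3 LPS and all 3 LPS-MIC-1 libraries were above every control library. The log2 fold change of LPS against control was 2.60 ± 0.120 (SE, adjusted p = 7.83e-07) and that of LPS-MIC-1 against control 2.35 ± 0.120 (adjusted p = 3.91e-07). The libraries of LPS and LPS-MIC-1 overlapped, with a difference of −0.25 (95% interval −0.53 to 0.03). Without LPS-MIC-1 replicate 3, the library with the highest sum of FPKM, that difference was −0.40 with an adjusted p of 0.000434, and it also passed with quantile normalization. Prdx5 was the only member that passed in LPS against control in all 20 alternative settings.

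Sod1, the cytosolic dismutase, stood at 477, 456 and 509 FPKM in control, at 315, 331 and 324 under LPS and at 899, 873 and 1088 under LPS-MIC-1. No group overlapped another, and LPS was the lowest. Sod1 was lower in LPS than in control by −0.57 ± 0.0878 on the log2 scale (adjusted p = 0.00059). It was higher under LPS-MIC-1 than under LPS by 1.55 ± 0.0878 (adjusted p = 6.25e-07) and than in control by 0.98 ± 0.0878 (adjusted p = 1.27e-05).

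Sod2, the mitochondrial dismutase, moved the other way between control and LPS. It stood at 27.2, 28.2 and 27.0 FPKM in control, at 46.6, 43.8 and 44.9 under LPS and at 33.1, 32.7 and 44.2 under LPS-MIC-1. It was 1.64-fold higher in LPS than in control (log2 fold change 0.71 ± 0.109, adjusted p = 0.000573). LPS-MIC-1 replicate 3 lay within the LPS libraries, and LPS-MIC-1 differed from LPS by −0.31 (95% interval −0.56 to −0.06, adjusted p = 0.0259), short of the 0.001 threshold. Without that replicate the difference was −0.45 and passed, as it did with quantile normalization and with FPKM rescaled to equal sums.

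Because a ratio of 2 genes within a library does not depend on how libraries are scaled, the ratio of Sod2 to Sod1 FPKM was also taken. It was 0.0573 ± 0.0044 in control, 0.140 ± 0.0079 under LPS and 0.0383 ± 0.0020 under LPS-MIC-1 (SD, n = 3), with no overlap between groups. An exact permutation test of 3 against 3 libraries cannot go below p = 0.1, which limits any single ratio here.

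Sod3, the secreted dismutase of connective tissue and vessels, was listed at 0.0269, 0 and 0.0263 FPKM in control. In LPS it stood at 0, 0.0320 and 0.858, of which the last is the LPS library whose myogenic median, 0.0890, was also the highest of that group. In LPS-MIC-1 it stood at 440, 401 and 513. No fold is given against libraries at or near 0, since it is set by the pseudocount. The mean that took Sod3 past the filter came from LPS-MIC-1 alone, so its difference from the other groups is a description with no test. Genes of mesenchymal cells moved with it, at a median of 0.0581 FPKM in LPS and 22.8 under LPS-MIC-1. So did those of the myogenic list (0.0297 and 53.9), the muscle fibre list (0.0267 and 8.53) and the smooth muscle list (0.558 and 9.51). No 1 of these lists is thus singled out, and their part in the result was not tested.

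Cat was the member that was lower in LPS-MIC-1 than in both other groups by more than a log2 fold change of 1. It stood at 50.9, 51.3 and 50.5 FPKM in control, at 54.5, 52.9 and 52.2 under LPS and at 14.1, 16.9 and 17.0 under LPS-MIC-1. The LPS-MIC-1 level was 3.33-fold lower than LPS (log2 fold change −1.73 ± 0.0726, adjusted p = 1.14e-07) and 3.18-fold lower than control. Between LPS and control Cat differed by 0.06 (95% interval −0.10 to 0.23), a sign that turned to −0.0098 with quantile normalization and −0.27 with FPKM rescaled to equal sums. The ratio of Cat to Sod2 was 1.85 ± 0.032 in control, 1.18 ± 0.024 under LPS and 0.442 ± 0.067 under LPS-MIC-1.

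RefSeq lists pseudogenes of Prdx1, Prdx2 and Prdx6 that have no rows of their own here, so the values of these 3 genes are uncertain to that extent. Of the cytosolic pair, Prdx1 stood at 446, 436 and 447 FPKM in control, at 627, 689 and 690 under LPS and at 1240, 1394 and 1674 under LPS-MIC-1. The 3 groups did not overlap. LPS against control, at 0.59 ± 0.104, missed the threshold with an adjusted p of 0.00127, and it passed among other settings with the 6 libraries compared fitted alone. LPS-MIC-1 was 2.13-fold higher than LPS (adjusted p = 1.66e-05) and 3.22-fold higher than control (adjusted p = 1.24e-06).

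Prdx2, also abundant in red blood cells, stood at 159, 157 and 160 FPKM in control, at 85.5, 85.5 and 89.5 under LPS and at 324, 302 and 417 under LPS-MIC-1. Like Sod1, it was lowest in LPS and highest in LPS-MIC-1 with no overlap. It was 1.82-fold lower in LPS than in control (log2 fold change −0.87 ± 0.107, adjusted p = 0.000169). It was 3.96-fold higher under LPS-MIC-1 than under LPS (1.99 ± 0.107, adjusted p = 4.75e-07). The ratio of Prdx2 to Prdx1 fell from 0.358 ± 0.0025 in control to 0.130 ± 0.0061 under LPS, and stood at 0.242 ± 0.023 under LPS-MIC-1.

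Prdx3, the mitochondrial member of the family, stood at 83.0, 81.1 and 85.5 FPKM in control, at 52.0, 49.6 and 48.2 under LPS and at 48.0, 50.9 and 63.7 under LPS-MIC-1. It was 1.67-fold lower in LPS than in control (adjusted p = 0.000256) and 1.55-fold lower under LPS-MIC-1 than in control (adjusted p = 0.000406). The pass of LPS-MIC-1 against control was lost in 7 of the 9 fits that left out 1 library. It was also lost in 2 of the 11 other settings (adjusted p up to 0.0027, limma). LPS and LPS-MIC-1 overlapped, with a difference of 0.11 (95% interval −0.12 to 0.33) that turned to −0.016 under quantile normalization. Sod2 and Prdx3 share the mitochondrial matrix, yet between control and LPS 1 was higher and the other lower.

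Prdx4, which acts in the endoplasmic reticulum, varied less. It stood at 104, 103 and 97.1 FPKM in control, at 80.7, 85.6 and 87.4 under LPS and at 117, 112 and 151 under LPS-MIC-1. No group overlapped another, but none of the 3 differences passed, and the closest was LPS-MIC-1 against LPS at 0.57 ± 0.106 (adjusted p = 0.00108). LPS-MIC-1 against control, at 0.31, turned to −0.071 with quantile normalization and to −0.069 with FPKM rescaled to equal sums.

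Prdx6, the 1-Cys peroxiredoxin that also has phospholipase activity, stood at 133, 131 and 133 FPKM in control, at 119, 127 and 120 under LPS and at 360, 459 and 461 under LPS-MIC-1. LPS and control differed by −0.12 (95% interval −0.33 to 0.09). LPS-MIC-1 was 3.48-fold higher than LPS (adjusted p = 3.59e-07) and 3.20-fold higher than control (adjusted p = 6.15e-07).

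For LPS-MIC-1 set against LPS, 4 of the 9 genes other than Sod3 were higher (Sod1, Prdx1, Prdx2 and Prdx6) and 1 was lower (Cat) at the same threshold, against 32.8% of all genes higher and 33.7% lower (66.5% in all), and quantile normalization gave 4 higher and 3 lower. All 5 were also called, where 49.9% of all genes were, and all 5 passed in each of the 20 alternative settings. Leaving out LPS-MIC-1 replicate 1, the library with the most macrophage signal of its group, left 5 of the 9 called. Leaving out LPS-MIC-1 replicate 3 left 4 called, 3 higher and 1 lower, and quantile normalization gave the same counts. The median log2 fold change was 0.57 over these 9 and −0.05 over all genes. Against control, LPS-MIC-1 was higher for 5 of the 9 and lower for 2, where 29.9% of all genes were higher and 30.5% lower (60.5% in all). Of the 2 lower, Cat and Prdx3, the pass of Prdx3 was not stable, as given above. Of the 9, 4 were called higher and 1 lower, where 43.3% of all genes were called, and FPKM rescaled to equal sums called 3 higher and 2 lower. Among these 9 the groups did not overlap for 9 in LPS against control, 6 in LPS-MIC-1 against LPS and 9 in LPS-MIC-1 against control, but neither did they for 79.4%, 85.5% and 83.0% of all genes. With a share so high among all genes, these counts say little about the members.

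The rank of the members, compared per length in FPKM, also changed between groups. Sod1 led in control at a mean of 481 FPKM, followed by Prdx1 at 443, and Prdx4 and Prdx5 overlapped in the middle. In LPS, Prdx1 led at 669, ahead of Prdx5 at 586 and Sod1 at 323, with Prdx2 and Prdx4 overlapping. In LPS-MIC-1, Prdx1 led at 1436, ahead of Sod1 at 953, and the levels of Prdx5, Sod3, Prdx6 and Prdx2 each overlapped with the next. Sod3 was last in control and in LPS, while Cat was last in LPS-MIC-1. Sod1 made up 94.6 ± 0.39% of the summed dismutase FPKM in control, 87.7 ± 0.61% in LPS and 66.1 ± 0.64% under LPS-MIC-1, where Sod3 took most of the rest. The peroxiredoxins together summed to 1015 ± 14.5 FPKM in control, 1597 ± 47.7 under LPS and 2890 ± 429 under LPS-MIC-1. Between control and LPS only Prdx1 and Prdx5 had higher means, while those of Prdx2, Prdx3, Prdx4 and Prdx6 were lower. The sum of FPKM over all genes also differed between these groups, and this class sum was not rescaled for it.

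In muscle none of the 10 genes reached a log2 fold change of 1 in any comparison. Changes were smaller over all genes too, with a median absolute log2 fold change of 0.16, 0.38 and 0.41 in LPS against control, LPS-MIC-1 against LPS and LPS-MIC-1 against control, where the C2C12 table had 0.59, 1.19 and 1.01. Over the members in muscle it was 0.13, 0.24 and 0.15. Muscle is a tissue of several cell types, so fewer cells of a type and less RNA per cell cannot be told apart. Between LPS and control, 4 of the 10 genes were higher (Sod2, Sod3, Prdx2 and Prdx3) and 0 lower at an adjusted p under 0.05 (limma), where 8.25% of the 9475 genes tested were higher and 7.48% lower (15.7% in all). Quantile normalization gave 3 higher and 1 lower. Only 0 to 2 members passed once any 1 of the 6 libraries compared was left out, with 0 left without LPS replicate 1. At an unadjusted p under 0.05 the count was 6, and it was 9 in LPS-MIC-1 against LPS and 8 in LPS-MIC-1 against control, where 29.6%, 61.0% and 62.6% of all genes were under it. Between LPS-MIC-1 and LPS, 1 was higher (Cat) and 6 were lower (Sod2, Sod3, Prdx1, Prdx2, Prdx3 and Prdx5), where 28.3% of all genes were higher and 28.2% lower (56.5% in all), and with FPKM rescaled to equal sums the split was 3 higher and 4 lower. Called members numbered 0 in each comparison, against 1.25%, 15.1% and 15.5% of all genes. The median log2 fold change of the members was 0.08, −0.17 and −0.09 in LPS against control, LPS-MIC-1 against LPS and LPS-MIC-1 against control, against 0.01, −0.01 and 0.01 over all genes.

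**Figure D2:**
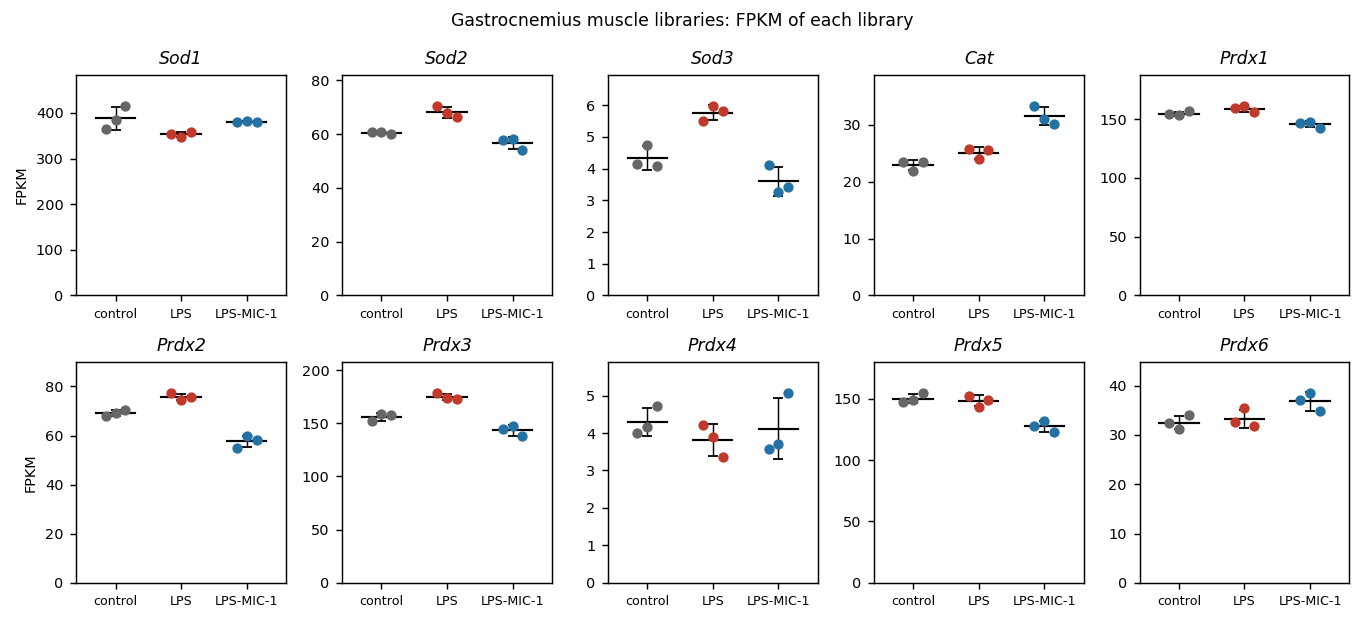
FPKM of the 10 genes in the 9 gastrocnemius libraries, 1 panel per gene with its own axis from 0. Points are libraries, horizontal lines are means and bars are SD (n = 3). Sod2, Sod3, Prdx2 and Prdx3 are highest in LPS, and Cat is highest in LPS-MIC-1.

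Sod1 was the most abundant member in every muscle group, at 365, 385 and 415 FPKM in control, 353, 347 and 359 under LPS and 380, 383 and 381 under LPS-MIC-1. LPS lay below both other groups without overlap, but neither difference passed (adjusted p = 0.0734 for LPS and control, 0.0585 for LPS and LPS-MIC-1). LPS-MIC-1 differed from control by −0.02 (95% interval −0.12 to 0.07), which turned to 0.13 with FPKM rescaled to equal sums.

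Sod2 stood at 60.7, 60.7 and 60.0 FPKM in control, at 70.4, 67.7 and 66.2 under LPS and at 57.8, 58.1 and 54.2 under LPS-MIC-1. LPS was above both other groups in every library. Sod2 was 1.13-fold higher in LPS than in control (adjusted p = 0.019) and 1.20-fold lower under LPS-MIC-1 than under LPS (log2 fold change −0.26 ± 0.0380, adjusted p = 0.000449). The ratio of Sod2 to Sod1 was 0.156 ± 0.011 in control, 0.193 ± 0.0076 under LPS and 0.149 ± 0.0056 under LPS-MIC-1, so the LPS ratio was the highest in muscle as it was in the C2C12 table.

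Sod3 was low in muscle, at 4.16, 4.76 and 4.10 FPKM in control, 5.51, 5.97 and 5.83 under LPS and 4.13, 3.27 and 3.42 under LPS-MIC-1. The LPS libraries were again the highest, and control and LPS-MIC-1 overlapped. Its log2 fold change was 0.41 ± 0.103 between LPS and control (adjusted p = 0.0326), and LPS-MIC-1 differed from LPS by −0.67 ± 0.103 (adjusted p = 0.000677), the widest shift of any member in muscle. Smooth muscle markers, from cells of the vessel wall where Sod3 is found, had a median of 9.01 FPKM in control, 7.74 under LPS and 4.77 under LPS-MIC-1, and all 4 of them were lower under LPS-MIC-1 than under LPS. The median of 7 mesenchymal markers was 10.8, 11.4 and 5.86 FPKM, with 5 of the 7 lower and 2 higher in every LPS-MIC-1 library than in every LPS library. The median of 6 endothelial markers, also of vessels, was 11.5, 7.40 and 8.67 FPKM. Of those 6, 2 were higher and 1 lower in every LPS-MIC-1 library than in every LPS library. The part of these lists in the result was not tested.

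Cat stood at 23.4, 21.9 and 23.4 FPKM in control, at 25.7, 23.9 and 25.5 under LPS and at 33.3, 31.1 and 30.2 under LPS-MIC-1. Every LPS-MIC-1 library was above all the others. Cat was 1.26-fold higher under LPS-MIC-1 than under LPS (0.33 ± 0.0528, adjusted p = 0.000821) and 1.37-fold higher than in control (0.46 ± 0.0528, adjusted p = 0.000117), and both passed in all 20 alternative settings. The ratio of Cat to Sod2 rose with it, from 0.379 ± 0.016 in control and 0.368 ± 0.016 in LPS to 0.556 ± 0.021 under LPS-MIC-1. Catalase and Prdx2 are abundant in red blood cells. The 4 erythroid genes found summed to 437 to 529 FPKM in control, 606 to 651 under LPS and 542 to 604 under LPS-MIC-1. The part of red blood cells in the levels of Cat and Prdx2 was not tested.

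Among the peroxiredoxins of muscle, Prdx3, Prdx1 and Prdx5 were of like abundance. Prdx1 stood at 154, 153 and 157 FPKM in control, 159, 161 and 156 under LPS and 147, 148 and 143 under LPS-MIC-1. It was 1.09-fold lower under LPS-MIC-1 than under LPS (adjusted p = 0.00404), a difference that was at 0.0064 on the log2 scale with FPKM rescaled to equal sums.

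Prdx2 stood at 67.9, 69.2 and 70.4 FPKM in control, 77.2, 74.4 and 75.5 under LPS and 55.0, 59.6 and 58.1 under LPS-MIC-1, with no overlap. It was 1.31-fold lower under LPS-MIC-1 than under LPS (−0.40 ± 0.0371, adjusted p = 3.62e-05) and 1.20-fold lower than in control. LPS against control, at 0.13 ± 0.0371, just passed (adjusted p = 0.0497, limma). That pass was lost in 4 of the 11 settings other than those that left out 1 library. These included no FPKM filter (adjusted p = 0.0635) and quantile normalization (adjusted p = 0.112). It was also lost in 7 of the 9 fits that left out 1 library, among them each of the 6 libraries compared.

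Prdx3 stood at 152, 158 and 158 FPKM in control, 178, 174 and 173 under LPS and 144, 147 and 138 under LPS-MIC-1, a pattern like that of Sod2, its partner in the matrix. It was 1.12-fold higher in LPS than in control (adjusted p = 0.0122) and 1.22-fold lower under LPS-MIC-1 than under LPS (adjusted p = 0.000117). In mean FPKM, Prdx3 followed Sod1 in control and in LPS but overlapped with Prdx1 in control and, below it, in LPS-MIC-1. Summed, Sod2 and Prdx3 were at 217 ± 3.28 FPKM in control, 243 ± 4.92 under LPS and 200.0 ± 7.03 under LPS-MIC-1.

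Prdx4 was the scarcest peroxiredoxin of muscle, at 4.01, 4.15 and 4.73 FPKM in control, 4.22, 3.88 and 3.37 under LPS and 3.59, 3.70 and 5.06 under LPS-MIC-1. All groups overlapped, and no difference passed. Prdx5 stood at 147, 149 and 154 FPKM in control, 153, 144 and 149 under LPS and 128, 132 and 123 under LPS-MIC-1. LPS-MIC-1 lay below both other groups, by 1.16-fold against LPS (adjusted p = 0.00124) and 1.18-fold against control (adjusted p = 0.000793), and neither passed with FPKM rescaled to equal sums (adjusted p = 0.0509 and 0.0733). LPS and control differed by −0.02 (95% interval −0.10 to 0.07) on the log2 scale. Prdx6 stood at 32.4, 31.2 and 34.0 FPKM in control, 32.6, 35.4 and 31.7 under LPS and 37.2, 38.4 and 34.8 under LPS-MIC-1, and was 1.13-fold higher in LPS-MIC-1 than in control (adjusted p = 0.0287, but 0.241 with quantile normalization).

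Against control, LPS-MIC-1 muscle had 2 members that passed as higher (Cat and Prdx6) and 4 as lower (Prdx1, Prdx2, Prdx3 and Prdx5), where 30.0% of all genes were higher and 28.5% lower (58.5% in all), but this split depended on the scaling. Quantile normalization gave 1 higher and 7 lower, and FPKM rescaled to equal sums gave 4 higher and 0 lower, with Prdx1 turning from −0.08 to 0.072 and Prdx3 from −0.12 to 0.033. That rescaling moved the median log2 fold change of all genes by 0.16 in this comparison and by 0.13 in LPS-MIC-1 against LPS, while quantile normalization moved them by −0.12 and −0.12. Cat passed as higher under each of the 4 scalings, and in LPS-MIC-1 against LPS Sod2, Sod3, Prdx2 and Prdx3 passed as lower under each. Median-ratio scaling moved the log2 fold changes by a median of −6.5e-08, 9.8e-08 and −1.8e-07 in the 3 muscle comparisons. It thus nearly repeats the deposited values and adds no separate check. The groups did not overlap for 6, 8 and 7 members in the 3 muscle comparisons, where they did not for 36.5%, 64.2% and 64.6% of all genes.

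**Figure D3:**
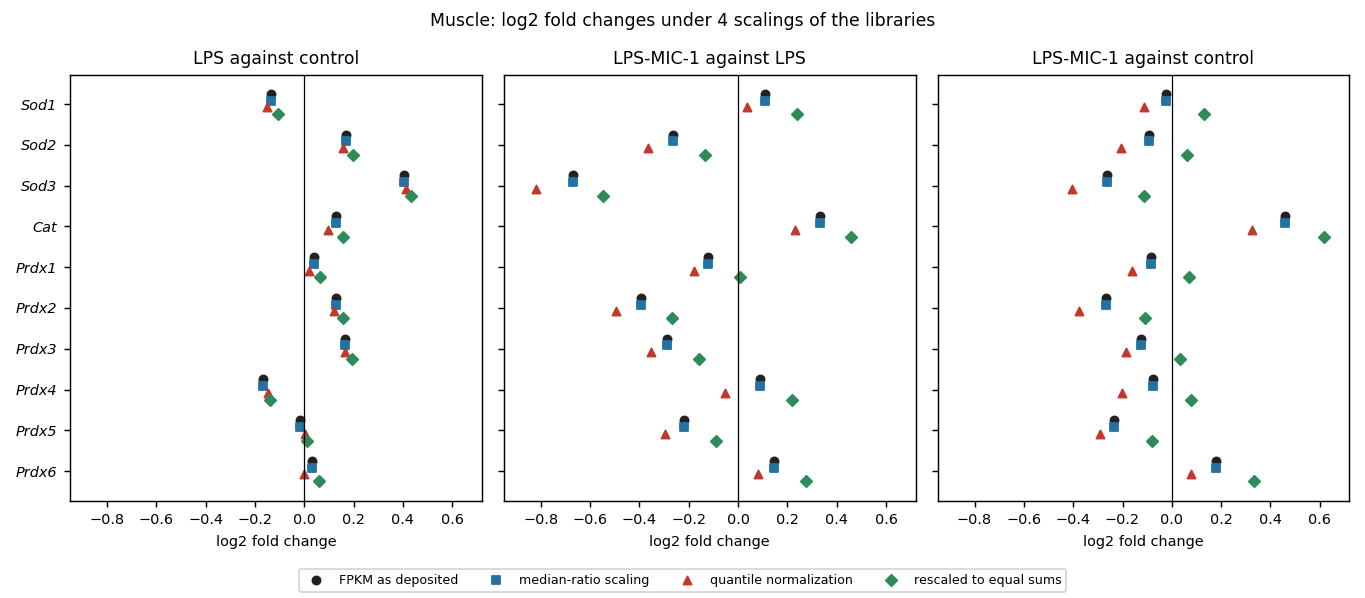
Log2 fold changes of the 10 genes in muscle, 1 panel per comparison, with the libraries as deposited, scaled by median ratio, quantile normalized and rescaled to equal sums of FPKM. Positive values are higher in the group named first. In LPS-MIC-1 against control Cat stays right of 0 under each scaling, while Prdx1 and Prdx3 cross 0.

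**Figure D4:**
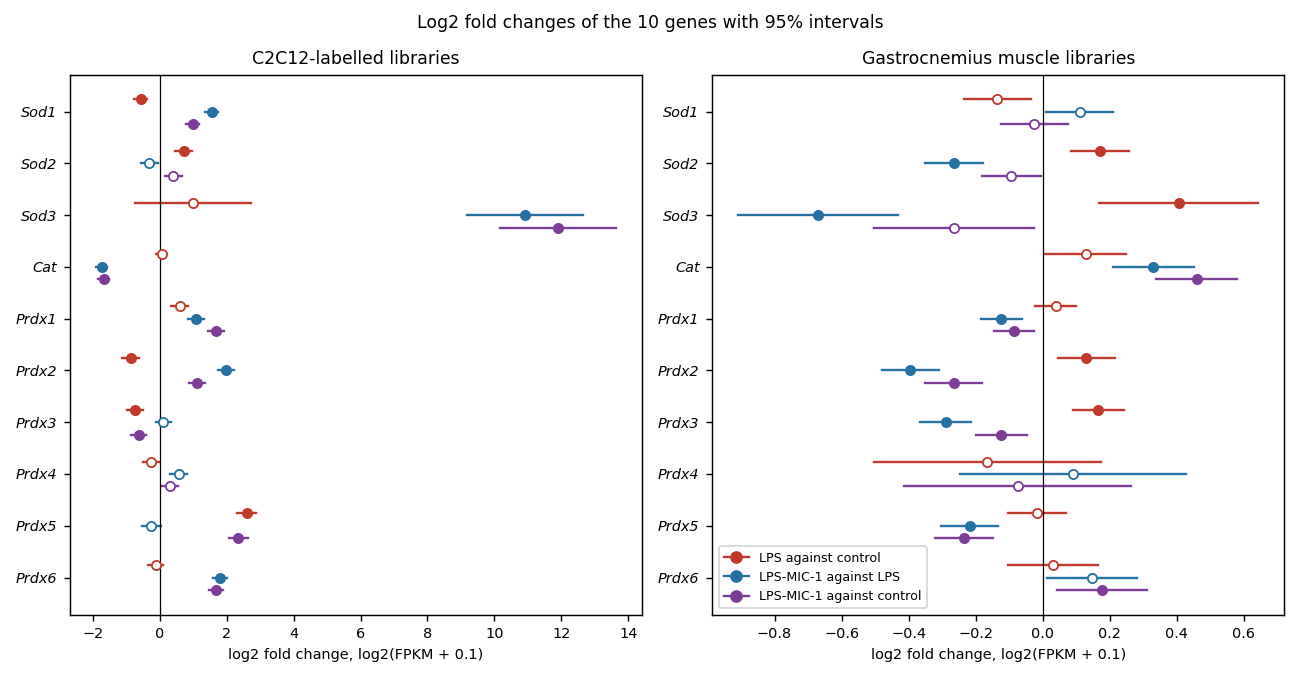
Log2 fold changes of the 10 genes with 95% intervals in the C2C12 table (left) and muscle (right), on axes of different range. Filled points passed the adjusted p threshold of their table, 0.001 in C2C12 and 0.05 in muscle, and open points did not. The axis of C2C12 spans changes over 10 on the log2 scale, set by Sod3, whose LPS-MIC-1 points there follow from the filter and are no test, while all muscle changes lie within 1.

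Set side by side, the tables gave different patterns for the same labels, and no test was made between them because they were normalized separately. Sod2 was the only dismutase or peroxiredoxin that passed as higher in LPS than in control in both, at 0.71 in C2C12 and 0.17 in muscle. Neither pass was stable. With single libraries left out, Sod2 lost the threshold in 6 of 9 fits in C2C12 and in 5 of 9 in muscle (adjusted p up to 0.00329 and 0.07, limma). Prdx2 and Prdx3 were lower in LPS in the C2C12 table (−0.87 and −0.74) and higher in muscle (0.13 and 0.17). Cat was lower under LPS-MIC-1 than under LPS in the C2C12 table (−1.73) and higher in muscle (0.33). For Prdx5 the C2C12 change of 2.60 with LPS stood beside −0.02 in muscle.

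Partners that feed or recycle the enzymes were described next, from a list of 18 genes of which 17 could be tested in each table and Sesn3 could not. Txnrd3 in C2C12 and Sesn2 in muscle passed the filter only through their LPS-MIC-1 libraries, and each adds 1 to the higher count of both LPS-MIC-1 comparisons of its table. In the C2C12 table, 4 were higher and 3 lower in LPS than in control, 7 higher and 5 lower under LPS-MIC-1 than under LPS, and 6 higher and 7 lower under LPS-MIC-1 than in control, beside 37.8%, 66.5% and 60.5% of all genes that passed in either direction. Rescaling FPKM to equal sums changed the first of these splits to 3 higher and 10 lower and the last to 5 higher and 9 lower, and quantile normalization changed the first to 3 higher and 7 lower. Over all genes that rescaling moved the first split the same way, from 2021 higher and 2094 lower to 1241 and 3311. In muscle, 2 were higher and 2 lower, then 8 higher and 4 lower, then 9 higher and 3 lower, beside 15.7%, 56.5% and 58.5% of all genes. That rescaling gave 9 higher and 1 lower for LPS-MIC-1 against LPS and 12 higher and 1 lower against control, while quantile normalization gave 6 higher and 5 lower for the former. Over all genes the rescaling moved the split against control from 2841 higher and 2703 lower to 3691 and 1871.

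Of the thioredoxin system that recharges peroxiredoxins, cytosolic Txn1 stood at 219 to 228 FPKM in C2C12 LPS and 886 to 1121 under LPS-MIC-1, a 4.33-fold difference (adjusted p = 1.32e-07). Mitochondrial Txn2 was 3.90-fold higher and the cytosolic reductase Txnrd1 2.28-fold higher in the same comparison. In muscle Txnrd1 was 1.35-fold higher under LPS-MIC-1 than under LPS (adjusted p = 7.33e-05), Txn1 was 1.11-fold higher and Txn2 1.13-fold lower. Txnip, which binds and inhibits thioredoxin, moved in opposite directions, 6.66-fold lower in C2C12 LPS-MIC-1 than in LPS and 2.36-fold higher in muscle (adjusted p = 2.43e-07 and 5.05e-08).

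Srxn1, the sulfiredoxin that repairs over-oxidized peroxiredoxins and a known Nrf2 target, was higher in each C2C12 step, at 15.7 to 17.0 FPKM in control, 40.7 to 41.2 under LPS and 63.2 to 65.5 under LPS-MIC-1. In muscle it stood at 10.0 to 10.8, 11.4 to 13.0 and 24.1 to 25.5, and was 2.06-fold higher under LPS-MIC-1 than under LPS (adjusted p = 1.6e-06). Nfe2l2, the gene of Nrf2, stood at 10.6 to 11.1 FPKM in muscle control, 11.9 to 12.5 under LPS and 23.3 to 24.2 under LPS-MIC-1. In the C2C12 table Nfe2l2 went the other way, at 68.5 to 71.0, 55.2 to 56.4 and 34.0 to 49.8. With the settings used throughout, it passed only as lower in LPS-MIC-1 than in control (adjusted p = 0.00036, limma). That pass was lost in 4 of the 9 fits that left out 1 library and in 2 of the 11 other settings. LPS against control and LPS-MIC-1 against LPS each passed as lower in 1 of those 9 fits and in 2 of those 11 settings. Keap1, which holds Nrf2 back, was 1.87-fold lower in C2C12 LPS than in control (adjusted p = 1.61e-05). In muscle it passed as higher under LPS-MIC-1, by 1.12-fold against LPS and 1.16-fold against control (adjusted p = 0.00887 and 0.0027). Each was lost in 1 of the 11 settings other than those that left out 1 library.

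The sestrins, stress-induced genes tied to peroxiredoxin repair, gave the widest change of the list in muscle. Sesn1 stood at 7.33 to 8.04 FPKM in control, 3.64 to 4.53 under LPS and 51.4 to 55.5 under LPS-MIC-1, 13.2-fold higher than in LPS (log2 fold change 3.72 ± 0.0856, adjusted p = 8.66e-09). Sesn2 was 3.56-fold higher in C2C12 LPS than in control and 8.07-fold lower under LPS-MIC-1 than under LPS (adjusted p = 2.13e-06 and 3.93e-08). For copper supply to Sod1, the importer Slc31a1 was 1.94-fold higher in C2C12 LPS than in control and 3.98-fold lower under LPS-MIC-1 than under LPS (adjusted p = 1.37e-05 and 7.22e-08). The copper chaperone Ccs, in contrast, passed only as 1.98-fold higher under LPS-MIC-1 than under LPS (adjusted p = 9.56e-05). In muscle Ccs passed only as 1.33-fold lower in LPS-MIC-1 than in control (adjusted p = 0.0152).

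**Figure D5:**
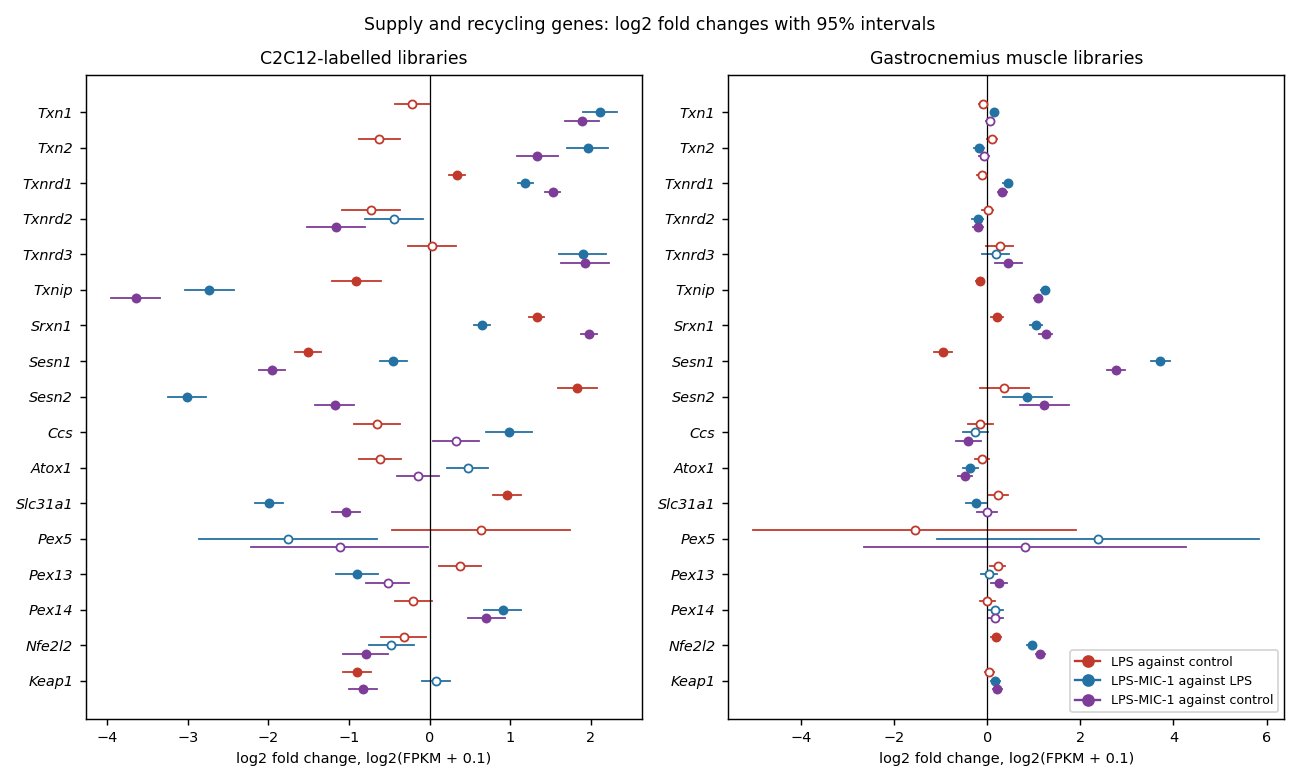
Log2 fold changes with 95% intervals of the 17 tested genes that supply, recycle or regulate the enzymes, in the C2C12 table (left) and muscle (right). Filled points passed the adjusted p threshold of their table. Txnip lies left of 0 in C2C12 and right of 0 for both LPS-MIC-1 comparisons in muscle, and Sesn1 has the largest muscle change that passed.

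The genes whose pattern was most like that of 4 members were ranked by Pearson's r over the 9 libraries of a table on log2(FPKM + 0.1). In muscle the pattern nearest to Sod2 was that of Scarb2 (r = 0.982), and Prdx3 came next (r = 0.980) among 9474 genes. For Cat in muscle it was Jph1, a junction protein of the muscle membrane system (r = 0.991), and for Sod1 the ribosomal protein gene Rps18 (r = 0.953) and for Sod3 Mmgt1 (r = 0.989). In the C2C12 table the closest to Sod3 was Mgp (r = 1.00), to Cat Tmem106a (r = 0.999), to Sod1 Snrpa1 (r = 0.998) and to Sod2 Acadl (r = 0.987). The points share 3 groups that differ in marker genes, so these values describe the libraries and carry no test.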

How the data were processed

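RNA was sequenced by the authors from C2C12-labelled cells and gastrocnemius muscle (18 libraries). Reads were pseudoaligned by the authors with kallisto and collapsed to gene symbols with tximport, and the deposited values are FPKM, 1 column for each library. The build mm9 is named in the submitters' processing notes, and no coordinates are given. The deposited DESeq2 tables hold the authors' own comparisons and were not used. The muscle table has 9 per-sample value columns without a name, which were not used.

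Each table was fitted apart with limma 3.58.1 in R 4.3.3 on log2(FPKM + 0.1), with 3 group means, eBayes with a trend, a filter of mean FPKM over 1 and Benjamini-Hochberg adjustment over all genes tested. Passed means an adjusted p under 0.001 (C2C12) or 0.05 (muscle), and called adds an absolute log2 fold change over 1, after the study's thresholds. Fold changes are on the log2(FPKM + 0.1) scale, which understates those of low genes. Figures used matplotlib 3.10.9 in Python 3.11.15. The fits were tested on simulated data.

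The members and lists were chosen with earlier results of these data known. Named genes were all 10 members, any gene of the supply list, the 3 most abundant genes of each marker list and the 3 nearest patterns of Sod1 to Sod3 and Cat. Myod1 was named in C2C12 after its values were seen. Cd68, Ly6g, Hba-a1 and Hbb-b2 of the marker lists are not analysed here. RefSeq lists pseudogenes of Prdx1, Prdx2 and Prdx6 that have no row under their RefSeq symbols in the tables, so these 3 genes may share reads with them. No 2 libraries were identical. For the MIC-1 concentration in cells, the labels and the study's text differ, and the labels were followed. The alternatives were other pseudocounts, filters and scalings, eBayes without a trend, unadjusted p-values, only the libraries compared, a replicate block and each library left out in turn. FPKM rescaled to equal sums in every library was chosen after seeing the data.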

Additional observations from a re-analysis of the deposited data

Results flagged for a closer look

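Marked here are 11 changes, of 7 genes, that ran in opposite directions in the C2C12 table and in muscle, with no overlap between the groups in either table. The difference between the tables was not tested. Lack of overlap was common among all genes tested. It held for 79.4%, 85.5% and 83.0% of them in C2C12 in LPS against control, LPS-MIC-1 against LPS and LPS-MIC-1 against control. In muscle it held for 36.5%, 64.2% and 64.6%. The share of all genes that ran in opposite directions was not computed, so the count of 11 says little about the members. Values are log2 fold changes, C2C12 first. For LPS against control the marked changes were Prdx2 (−0.87 and 0.13) and Prdx3 (−0.74 and 0.17). For LPS-MIC-1 against LPS they were Cat (−1.73 and 0.33), Prdx1 (1.09 and −0.12), Prdx2 (1.99 and −0.40) and Sod3 (10.91 and −0.67), of which the C2C12 value of Sod3 is set by the pseudocount and the filter and is no measure of size and no test. For LPS-MIC-1 against control they were Cat (−1.67 and 0.46), Prdx1 (1.69 and −0.08), Prdx2 (1.12 and −0.27), Prdx5 (2.35 and −0.23) and Sod2 (0.40 and −0.09). With FPKM rescaled to equal sums, the muscle values of Prdx1 turned to 0.0064 and 0.072 and that of Sod2 to 0.063, so those 3 no longer ran in opposite directions. The C2C12-labelled control and LPS libraries carried macrophage genes, and their part in these differences was not tested. Groups of 3 libraries are too small for a test of single outlying values.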

How the results depend on the processing

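Each comparison was recomputed under 20 alternative settings. Of 1194 log2 fold changes of the members, 1062 kept their direction and side of the threshold, 72 lost it, 37 gained it and 23 changed sign. Many of these could hardly move, so the count overstates stability. Median-ratio scaling nearly repeats the deposited values, unadjusted p cannot lose a pass, and some left-out libraries lay outside the comparison. The C2C12 values of Sod3, past the filter only through LPS-MIC-1, are also among them. In C2C12, LPS against control had 5 members past the adjusted p. The count was 1 to 6 without single libraries, and Sod1, Sod2 and Prdx3 were lost without any 1 of the 6 libraries compared (adjusted p up to 0.00355), and Prdx2 without any of them but LPS replicate 3. Called members rose from 1 to 3 with FPKM rescaled to equal sums. In muscle, 4 members passed in LPS against control, but 2 with no FPKM filter, 2 with eBayes without a trend and 0 to 4 without single libraries, the 0 being without LPS replicate 1. Genes called in muscle LPS against control were 118, but 71 with a pseudocount of 1, 57 with a mean FPKM over 5 and 185 by unadjusted p. LPS-MIC-1 against LPS gave 1431, but 2158 with no filter and 656 over 5 FPKM, and LPS-MIC-1 against control 1464, 2240 and 677.

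Replicate numbers did not pair the libraries: deviations of same-numbered libraries correlated between −0.0757 and 0.0573 in C2C12 and between −0.0540 and 0.0823 in muscle, and 0 and 2 of 9 libraries had their best correlates among those of their own number. With a replicate block, members past the adjusted p in LPS against control were 3 in C2C12 and 2 in muscle.

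The cause of the changes of sign was not tested. In C2C12 with quantile normalization these were Cat −0.0098 (LPS against control), Prdx3 −0.016 (LPS-MIC-1 against LPS) and Prdx4 −0.071 (LPS-MIC-1 against control), and with FPKM rescaled to equal sums Cat −0.27, Prdx4 −0.069 and Ccs −0.042. Without single libraries, Sod3 ranged from −0.027 (without LPS replicate 3) to 1.60 in LPS against control, and in LPS-MIC-1 against LPS Prdx3 ranged from −0.014 to 0.19 and Keap1 from −0.0071 to 0.12, both lowest without LPS-MIC-1 replicate 3. In muscle LPS against control, Prdx5 turned to 0.010 on rescaling and 0.0049 by quantiles, Prdx6 to −0.0024 and Keap1 to −0.0046 by quantiles. Without single libraries Prdx5 ranged from −0.038 to 0.0063 and Prdx6 from −0.015 to 0.063. In LPS-MIC-1 against LPS, Prdx1 turned to 0.0064 on rescaling and Prdx4 to −0.054 by quantiles, and Prdx4 ranged from −0.064 (without LPS-MIC-1 replicate 3) to 0.18. In LPS-MIC-1 against control, rescaling turned Sod1 to 0.13, Sod2 to 0.063, Prdx1 to 0.072, Prdx3 to 0.033, Prdx4 to 0.079, Txn2 to 0.081 and Slc31a1 to 0.14, and quantiles turned Txn1 to −0.067. Without single libraries Sod1 ranged from −0.069 to 0.024, Prdx4 from −0.23 to 0.013 and Slc31a1 from −0.070 to 0.042. With a mean FPKM over 5, Sod3 and Prdx4 had no value in muscle. No count of reads was used, so no floor can be given for values near 0.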
